A study of Mus musculus with 6 samples.

Results

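The circadian clock genes described here are 10 rows of the deposited expression table, chosen by gene symbol: Per1, Per2, Per3, Cry1, Cry2, Nr1d1, Nr1d2, Dbp, Tef and Bhlhe40. All 10 were found among the 56691 genes of the table. They were measured in 4T1, a mouse mammary carcinoma cell line, in 3 libraries of cells given KIRA6 at 1 µmol/L for 4 h and 3 libraries of cells given vehicle for 4 h. KIRA6 is a kinase inhibitor developed to attenuate the RNase of IRE1α, which detects unfolded proteins in the endoplasmic reticulum. Cells of both groups were kept overnight in complete RPMI 1640 and received new medium at the start of treatment. Values are FPKM, fragments of a gene scaled to its exonic length and to the size of the library, so levels of different genes can be set side by side.

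The mammalian clock is a feedback loop of transcription factors. CLOCK and BMAL1 (gene Arntl in the table) bind E-boxes and switch on the Per, Cry, Nr1d, Dbp and Tef genes, and the PER and CRY proteins return to the nucleus and inhibit CLOCK and BMAL1. REV-ERBα and REV-ERBβ (Nr1d1 and Nr1d2) repress Arntl in competition with the ROR receptors, while DBP and TEF activate, and NFIL3 represses, genes that carry a D-box. Nearly every cell type runs this loop, but RNA was taken here at a single time, so the phase of a rhythm cannot be read from these values.

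Letters that these factors are known to bind can be seen in the promoters of some clock genes. In RefSeq windows of 300 bases (250 before to 50 after a start site, GRCm38.p6), 8 of the 10 clock genes were represented, all but Per2 and Bhlhe40. The stretches below, from upstream of the start, are shown because Tef and Cry1 carry the same E-box while Tef RNA was higher and Cry1 RNA lower with KIRA6. Per1 carries it too and varied widely within groups, and Per3 carries 2 D-boxes. Capitals mark the E-box CACGTG, the D-box in Per3 and, as the first capitals of Cry1, the related E-prime box, which lies there on the other strand and whose letters are given below.
Tef, first window, chr15:81802526-81802571, plus strand: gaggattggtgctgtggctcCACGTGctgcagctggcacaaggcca
Tef, second window, chr15:81811256-81811301, plus strand: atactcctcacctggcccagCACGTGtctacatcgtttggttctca
Cry1, chr10:85185089-85185153, minus strand: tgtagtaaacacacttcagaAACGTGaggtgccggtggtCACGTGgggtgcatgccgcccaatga
Per1, chr11:69098763-69098808, plus strand: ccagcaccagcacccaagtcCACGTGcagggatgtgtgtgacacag
Per3, chr4:151044796-151044890, minus strand: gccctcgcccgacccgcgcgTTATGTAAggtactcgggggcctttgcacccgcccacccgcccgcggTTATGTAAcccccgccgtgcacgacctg

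Searched on both strands, CACGTG occurred in windows of 3 of the 8 clock genes (Per1, Cry1 and Tef) and in windows of 8.09% of all 27025 genes, or 7.15% of all 32851 windows. The E-prime box, CACGTT, occurred in 3 of the 8 (Cry1, Cry2 and Nr1d1) and in 5.44% of all genes, or 4.68% of windows. For Cry2 and Nr1d1 the part of the window after the start was not found near the start of an annotated transcript, so their matches are less certain. The D-box, TTATGTAA or TTACGTAA, occurred in 1 of the 8 (Per3) and in 1.23% of all genes, or 1.06% of windows. The windows of Dbp and Nr1d2 held none of these letters. Also searched were the cAMP response element TGACGTCA, a glucocorticoid element and a ROR element. They occurred in 0 of the 8, Per1 included, and in 2.03%, 0.54% and 0.51% of all genes. A match describes the sequence only, and the windows leave out more distant sites.

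Before the values of single genes, 2 libraries need naming. KIRA6 replicate 1 and Vehicle replicate 3 lay apart from the rest of their groups on the second principal component of all tested genes, at 44.5 and −55.9, with the other 4 libraries between −8.01 and 13. On the first component, with 56% of the variance against 35.1%, both lay between the other libraries of the groups, at −11 and 10.2. The other KIRA6 libraries were at −42 and −48.6 there, and the other vehicle libraries at 47.7 and 43.8. The libraries held an estimated 18215450 to 21345150 fragments assigned to genes with KIRA6 and 16495950 to 18588150 with vehicle. Mitochondrially encoded genes took 2.66% to 3.25% of fragments with KIRA6 and 1.75% to 2.03% with vehicle, and their part in the results below was not tested. All 7 epithelial markers were at or above 12.52 FPKM in every library. They summed to 1534 to 1629 FPKM with KIRA6 and 1325 to 1441 FPKM with vehicle. By the test given below, 3 of them were called higher and 0 lower, against 15.6% and 7.98% of all tested genes. The 6 leukocyte markers summed to 0.50 to 0.85 FPKM with KIRA6 and 0.12 to 0.43 FPKM with vehicle, with Cd3e and Adgre1 at 0, and the 5 endothelial markers to at most 0.06 FPKM. The 6 fibroblast markers summed to 1.91 to 3.78 FPKM with KIRA6 and 0.44 to 0.77 FPKM with vehicle. Nearly all of that was Pdgfra, while Lum was at 0 and Col1a1 at or below 0.08 FPKM. In bulk RNA, a change in the share of cells that express a gene and a change in RNA per cell cannot be told apart.

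KIRA6-treated cells had more Dbp, Tef, Per3 and Nr1d2 RNA and less Cry1 RNA than vehicle cells. The test was limma on log2(FPKM + 0.5) over the 11778 genes that averaged 0.5 FPKM or more, and a gene was called at an adjusted p below 0.05. Of the 9 clock genes that passed this filter, 4 were called higher and 1 lower, while 15.6% of all tested genes were called higher and 7.98% lower, or 23.6% in either direction. Among all 10, the groups did not overlap in 5 that were higher and 1 that was lower, which 27.7% and 14.1% of tested genes also showed (41.8% in either direction). The median log2 fold change of the 9 was 0.85, against 0.16 over all tested genes. Dbp and Per3 averaged under 0.5 FPKM in vehicle and passed the filter only through their KIRA6 values, so these counts are a description and not support. Per2 did not pass the filter.

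The output factors of the loop are the PAR bZIP proteins, which bind D-boxes, and both genes of that family studied here rose. Dbp (ENSMUSG00000059824, GRCm39 chromosome 7, 45354512 to 45359627) had 2.14, 3.50 and 4.11 FPKM with KIRA6, against 0.17, 0.22 and 0.13 FPKM with vehicle. Every KIRA6 library was far above every vehicle library, and KIRA6 replicate 1 was the lowest of its group. Dbp averaged 3.25 ± 1.01 FPKM with KIRA6 and 0.173 ± 0.0451 FPKM with vehicle (SD, n = 3 each), a ratio of means of 18.75. The log2 fold change was 2.44 ± 0.23 (SE, limma adjusted p = 0.001322), the 33rd highest of the 11778 tested genes. The pseudocount of 0.5 FPKM exceeds the vehicle mean and so understates this change, which was 3.58 with a pseudocount of 0.1 FPKM. The values rest on an estimated 137 to 244 fragments per library with KIRA6 and 7 to 11 with vehicle. A stretch of 737 bases of Dbp overlaps Sphk2 on the opposite strand, and the strand setting of the counting is not given in the sources used here. Sphk2 had 1.45, 3.72 and 4.42 FPKM with KIRA6 and 1.23, 2.07 and 5.29 FPKM with vehicle. Over the KIRA6 libraries it ran in the same order as Dbp, while over all 6 it was highest in the library in which Dbp was lowest. How far Dbp and Sphk2 share reads was not tested.

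Tef (ENSMUSG00000022389, chromosome 15, 81686622 to 81711064), the thyrotroph embryonic factor, had 8.84, 6.48 and 7.20 FPKM with KIRA6, against 2.87, 3.17 and 2.18 FPKM with vehicle. The groups were well apart, and here KIRA6 replicate 1 was the highest library and Vehicle replicate 3 the lowest. Tef averaged 7.51 ± 1.21 FPKM with KIRA6 and 2.74 ± 0.508 FPKM with vehicle (SD, n = 3 each). Its log2 fold change was 1.31 ± 0.19 (SE, limma adjusted p = 0.004551). The third member of the family, Hlf, was at or below 0.06 FPKM in all 6 libraries. Dbp and Tef therefore made up nearly all PAR bZIP RNA measured, and Tef was the more abundant of the pair in every library.

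The log2 ratio of Dbp to Tef within a library (of FPKM + 0.5, as for all paralog ratios here) was −1.82, −0.80 and −0.74 with KIRA6, against −2.33, −2.35 and −2.09 with vehicle. On this scale the ratio was higher in all 3 KIRA6 libraries, least so in replicate 1. The difference was 1.13 (exact permutation p = 0.1, two-sided, the smallest that 3 against 3 libraries can give; 0.2 after adjustment over 6 ratios). Its size follows the pseudocount: the difference was 2.15 with 0.1 FPKM (exact permutation p = 0.1), and 0.64 with 1 FPKM, where the test no longer gave its smallest value (exact permutation p = 0.2).

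**Figure D1:**
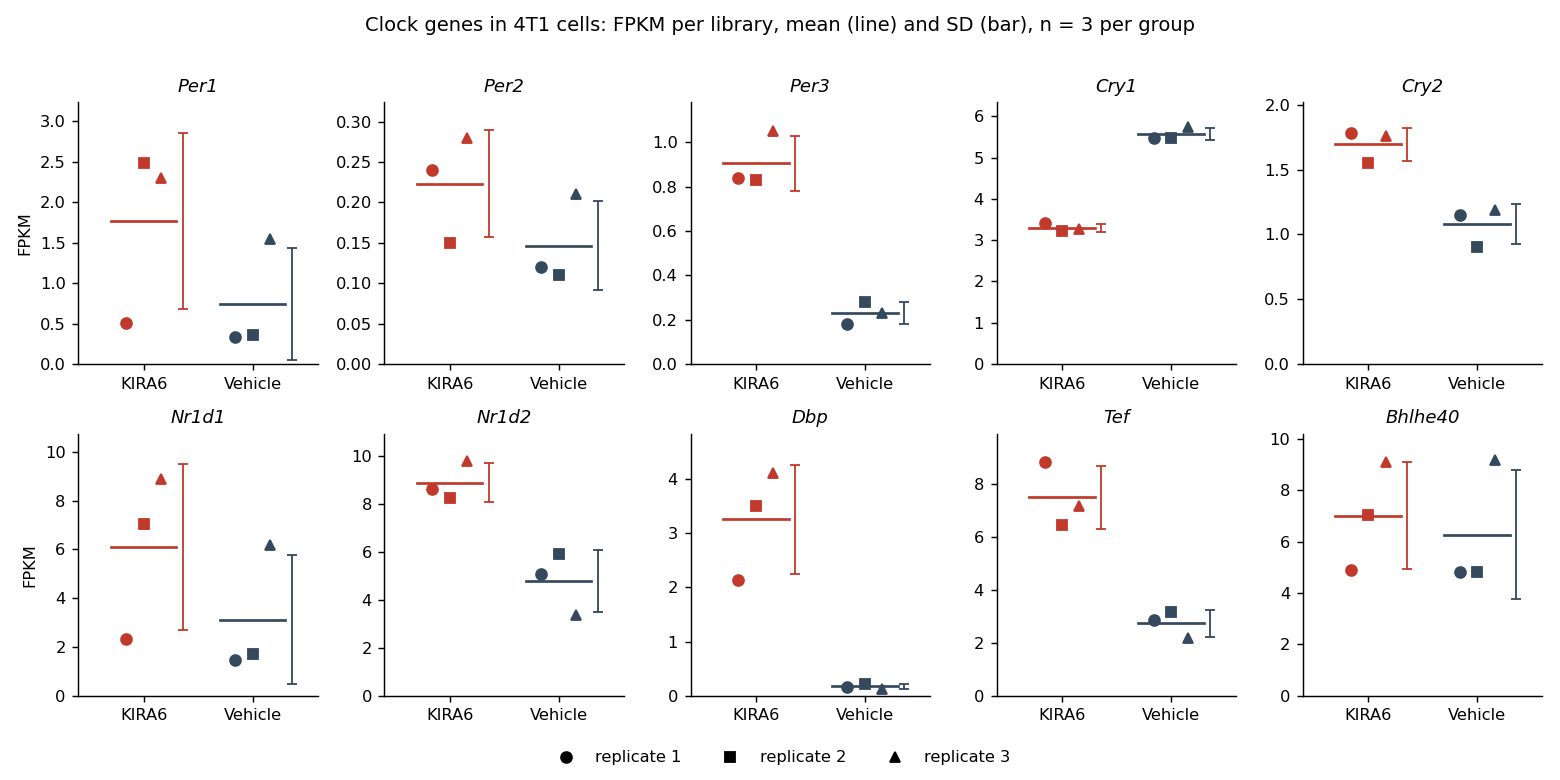
FPKM of the 10 clock genes in each library, KIRA6 (red, left) and vehicle (dark, right), with symbols for replicates, a line at the mean and a bar for the SD (n = 3 each); each panel has its own axis from 0. Dbp, Tef, Per3, Nr1d2 and Cry2 have all KIRA6 points above all vehicle points, Cry1 has them below, and in Per1, Nr1d1 and Bhlhe40 Vehicle replicate 3 lies above KIRA6 replicate 1.

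The inhibitory limb of the loop did not move as a block. Cry1 (ENSMUSG00000020038, chromosome 10, 84967564 to 85020928), which encodes the strongest repressor of CLOCK and BMAL1, had 3.41, 3.22 and 3.27 FPKM with KIRA6, against 5.48, 5.48 and 5.74 FPKM with vehicle. The libraries of each group were tightly grouped, and the 2 libraries named above stood out in neither. Cry1 averaged 3.30 ± 0.0985 FPKM with KIRA6 and 5.57 ± 0.15 FPKM with vehicle (SD, n = 3 each). It fell by 0.67 ± 0.13 on the log2 scale (SE, limma adjusted p = 0.0116), a call that ended without KIRA6 replicate 2 (adjusted p = 0.0638) or Vehicle replicate 2 (0.0623).

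Cry2 (ENSMUSG00000068742, chromosome 2, 92233991 to 92264388), the other cryptochrome, had 1.78, 1.55 and 1.76 FPKM with KIRA6, against 1.15, 0.90 and 1.19 FPKM with vehicle. Its groups did not overlap either, but in the opposite order to Cry1. The log2 fold change of 0.48 ± 0.15 (SE) missed the threshold (limma adjusted p = 0.0608), and it depended on the processing. It was 0.65 and called by limma-voom on estimated fragments (adjusted p = 0.0416), but 0.34 with median-ratio scaling (0.1616) and 0.14 with quantile normalization (0.6452). An antisense transcript gene, D930015M05Rik, overlaps Cry2 and was at or below 0.20 FPKM in every library.

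Set against each other, the cryptochromes gave ratios that did not overlap between the groups. The log2 ratio of Cry1 to Cry2 was 0.78, 0.86 and 0.74 with KIRA6, against 1.86, 2.09 and 1.88 with vehicle. Cry1 remained the more abundant in every library, by less with KIRA6. The ratio differed by −1.15 (exact permutation p = 0.1, two-sided, the smallest possible; 0.2 after adjustment), and by −1.35 and −0.99 with pseudocounts of 0.1 and 1 FPKM.

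The 3 Period genes encode the partners of CRY, and they differed from each other in level and in spread. Per3 (ENSMUSG00000028957, chromosome 4, 151088109 to 151129122), the paralog least needed for rhythm in mice, had 0.84, 0.83 and 1.05 FPKM with KIRA6, against 0.18, 0.28 and 0.23 FPKM with vehicle. Every KIRA6 library was well above every vehicle library, and neither of the 2 libraries named above was extreme. Per3 averaged 0.907 ± 0.124 FPKM with KIRA6 and 0.230 ± 0.050 FPKM with vehicle (SD, n = 3 each), and its log2 fold change was 0.94 ± 0.15 (SE, limma adjusted p = 0.00712). The ratio of means was 3.94, and the log2 fold change was 1.61 with a pseudocount of 0.1 FPKM and 2 by limma-voom, since the vehicle mean lies under the pseudocount of 0.5 FPKM. Per3 lies wholly inside the span of Camta1 on the same strand, which had 0.29 to 0.44 FPKM with KIRA6 and 0.42 to 0.49 FPKM with vehicle.

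Per1 (ENSMUSG00000020893, chromosome 11, 68986043 to 69000786), which hormones and cAMP are known to induce within hours, had 0.51, 2.48 and 2.30 FPKM with KIRA6, against 0.33, 0.36 and 1.54 FPKM with vehicle. The groups overlapped, because KIRA6 replicate 1 was close to the 2 low vehicle libraries and Vehicle replicate 3 was above it. The log2 fold change of 0.84 ± 0.53 (SE) was within this spread (limma adjusted p = 0.2957). Without both libraries Per1 averaged 2.39 FPKM with KIRA6 and 0.345 FPKM with vehicle (n = 2 each), and the log2 fold change was 1.77 ± 0.17 (SE, adjusted p = 0.0001088 by limma). That fit called 35.9% of all tested genes higher and 20.2% lower, or 56.1% in either direction. The libraries left out held the lowest KIRA6 and the highest vehicle value of Per1, so the change had to grow.

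Per2 (ENSMUSG00000055866, chromosome 1, 91343704 to 91387046) was the least abundant clock gene in both groups. It had 0.24, 0.15 and 0.28 FPKM with KIRA6, against 0.12, 0.11 and 0.21 FPKM with vehicle, from an estimated 16 to 33 and 11 to 23 fragments. The groups overlapped, and a fit with no filter on low values gave a log2 fold change of 0.16 ± 0.13 (SE, limma adjusted p = 0.5207). No difference beyond the spread between libraries was seen. The log2 ratio of Per2 to Per3 was −0.86, −1.03 and −0.99 with KIRA6, against −0.13, −0.36 and −0.04 with vehicle. The ratio was lower in all 3 KIRA6 libraries than in any vehicle library, a difference of −0.78. The exact permutation p was 0.1 (two-sided, the smallest possible) and 0.2 after adjustment. The difference was −1.22 with a pseudocount of 0.1 FPKM and −0.54 with 1 FPKM. Every Per2 value lay under the pseudocount of 0.5 FPKM, so this ratio mostly restates the difference in Per3.

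**Figure D2:**
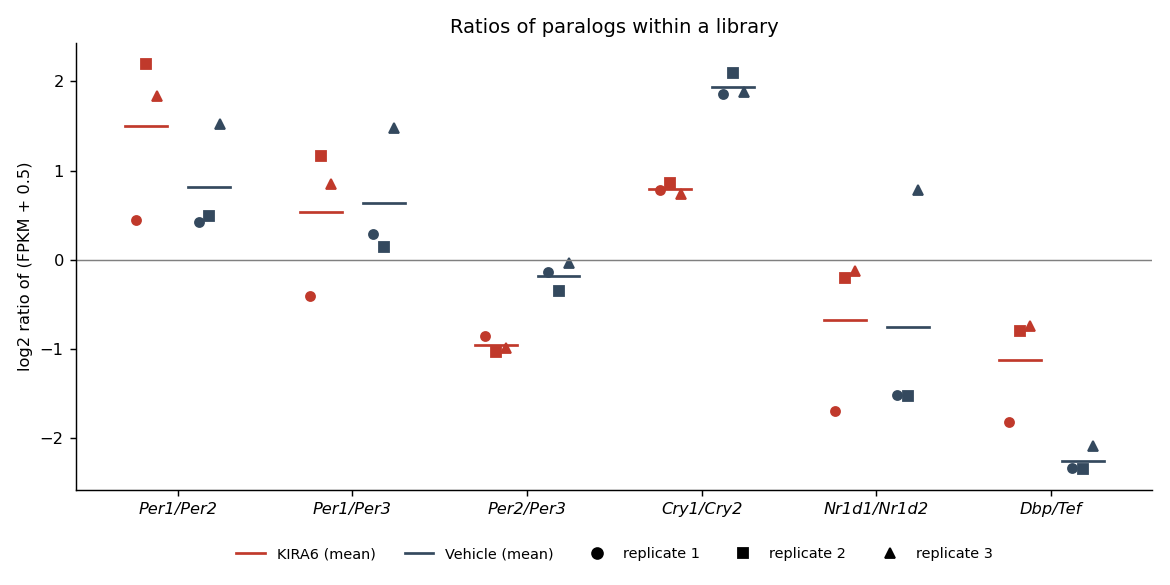
Log2 ratio of FPKM + 0.5 between paralogs within each library, KIRA6 (red, left of each pair) and vehicle (dark, right), with a line at the mean of 3 libraries. The groups do not overlap for Per2/Per3, Cry1/Cry2 and Dbp/Tef, while Per1/Per2, Per1/Per3 and Nr1d1/Nr1d2 overlap, with KIRA6 replicate 1 the lowest KIRA6 library and Vehicle replicate 3 the highest vehicle library in those 3.

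The other 3 ratios, all with Per1 or Nr1d1 on top, overlapped between groups. The log2 ratio differed by 0.68 for Per1 to Per2 (exact permutation p = 0.3, two-sided), by −0.10 for Per1 to Per3 (exact permutation p = 1) and by 0.07 for Nr1d1 to Nr1d2 (exact permutation p = 1).

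The REV-ERB receptors are the loop's second set of repressors. Nr1d2 (ENSMUSG00000021775, chromosome 14, 4230569 to 4265642) had 8.63, 8.24 and 9.78 FPKM with KIRA6, against 5.08, 5.93 and 3.38 FPKM with vehicle. The groups did not overlap, and Vehicle replicate 3 was the lowest library. Nr1d2 averaged 8.88 ± 0.801 FPKM with KIRA6 and 4.80 ± 1.3 FPKM with vehicle (SD, n = 3 each), and its log2 fold change was 0.85 ± 0.21 (SE, limma adjusted p = 0.03001). This was the least secure of the called increases. The call ended without KIRA6 replicate 1 (adjusted p = 0.0628), KIRA6 replicate 2 (0.0917), KIRA6 replicate 3 (0.1033) or Vehicle replicate 1 (0.0702), and with median-ratio scaling (0.0548), quantile normalization (0.0849) or no filter (0.0587).

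Nr1d1 (ENSMUSG00000020889, chromosome 11, 98658758 to 98666159) had 2.31, 7.06 and 8.89 FPKM with KIRA6, against 1.45, 1.73 and 6.17 FPKM with vehicle. As with Per1, Vehicle replicate 3 was far above the other vehicle libraries and KIRA6 replicate 1 far below the other KIRA6 libraries. The log2 fold change was 0.93 ± 0.61 (SE, limma adjusted p = 0.3228). Without both libraries it was 2.01 ± 0.17 (SE, adjusted p = 5.959e-05 by limma), from 7.975 FPKM with KIRA6 and 1.59 FPKM with vehicle (n = 2 each). These libraries held its lowest KIRA6 and highest vehicle value, so the change had to grow, in a fit that called 56.1% of all tested genes. Nr1d1 overlaps 1075 bases of Thra, a thyroid hormone receptor gene on the opposite strand. Thra had 7.69, 11.06 and 10.57 FPKM with KIRA6 and 3.26, 3.81 and 6.16 FPKM with vehicle, so it too was lowest in KIRA6 replicate 1 and highest in Vehicle replicate 3 of their groups. How far the pair shares reads was not tested.

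Bhlhe40 (ENSMUSG00000030103, chromosome 6, 108637590 to 108643886), also called Dec1, encodes a repressor that competes for E-boxes and also answers to hypoxia and growth signals. It had 4.90, 7.05 and 9.10 FPKM with KIRA6, against 4.81, 4.81 and 9.16 FPKM with vehicle. The ranges of the groups were nearly the same. Its log2 fold change of 0.17 ± 0.31 (SE, limma adjusted p = 0.7312) was close to the median of all genes, and it turned to −0.002 with median-ratio scaling and to −0.02 without KIRA6 replicate 3. Without KIRA6 replicate 1 and Vehicle replicate 3 together it was 0.68 ± 0.16 (SE, adjusted p = 0.006738 by limma). For Bhlhe40 too these were the lowest KIRA6 and the highest vehicle value, and that fit called 56.1% of all tested genes.

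Per1, Nr1d1 and Bhlhe40 thus shared a pattern inside the groups that the other clock genes lacked. KIRA6 replicate 1 stood at 0.213, 0.29 and 0.607 times the mean of the other KIRA6 libraries for Per1, Nr1d1 and Bhlhe40. Vehicle replicate 3 stood at 4.46, 3.88 and 1.9 times the mean of the other vehicle libraries for the same genes. Of all tested genes, 15.6% had KIRA6 replicate 1 down and Vehicle replicate 3 up by at least 1.5 times in this way, so the pattern was common in these libraries. Tef went the other way, at 1.29 times for KIRA6 replicate 1 and 0.722 times for Vehicle replicate 3, and Per3 and Cry1 stayed between 0.894 and 1.05 times in both. What the 2 libraries have in common was not tested.

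**Figure D3:**
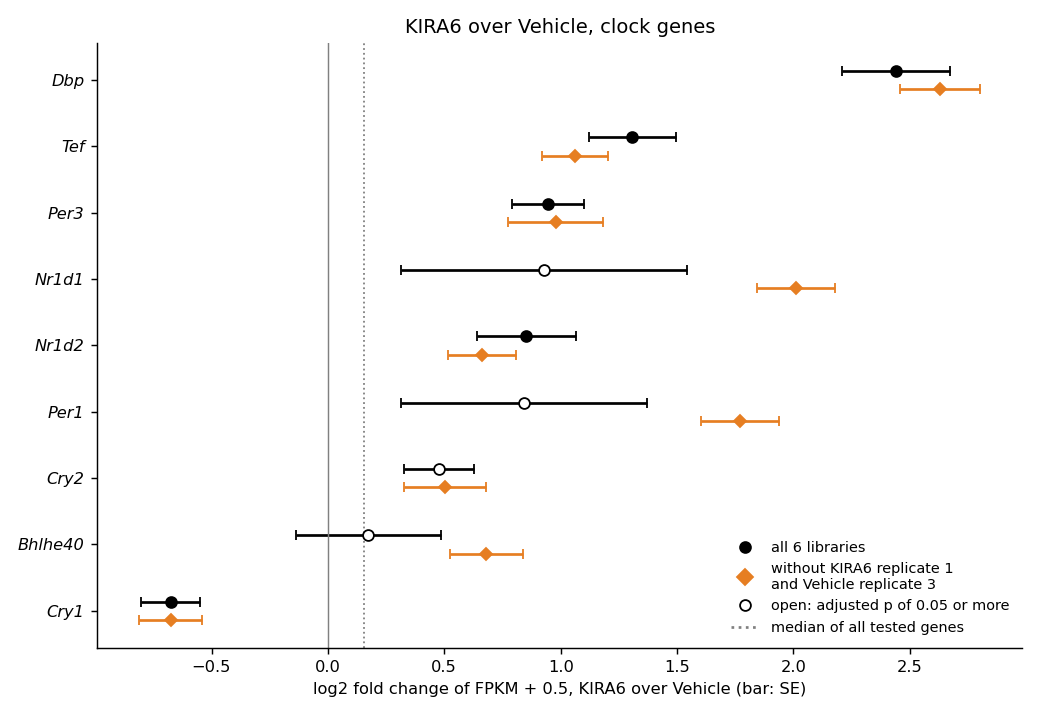
Log2 fold change of FPKM + 0.5, KIRA6 over vehicle, with its SE for the 9 tested clock genes, from all 6 libraries (black circles) and without KIRA6 replicate 1 and Vehicle replicate 3 (orange diamonds); filled symbols have an adjusted p below 0.05. Leaving out the 2 libraries moved Per1 to 1.77 and Nr1d1 to 2.01, and left Cry1 at −0.67 and Per3 at 0.98.

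The order of the genes by level differed between groups. With KIRA6 it ran Nr1d2, Tef, Bhlhe40, Nr1d1, Cry1, Dbp, Per1, Cry2, Per3 and Per2, from 8.88 to 0.223 FPKM. With vehicle it ran Bhlhe40, Cry1, Nr1d2, Nr1d1, Tef, Cry2, Per1, Per3, Dbp and Per2, from 6.26 to 0.147 FPKM. Ranges over libraries overlapped between most neighbours. Separate neighbours were Cry2 above Per3 and Per3 above Per2 with KIRA6, and Tef above Cry2 and Per1 above Per3 with vehicle. Dbp stood among the genes near 3 FPKM with KIRA6, and with vehicle its range overlapped that of Per2.

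The rest of the clock was described from a list of 12 further factors, of which 8 were tested, 3 were called higher and none was called lower, against 15.6% and 7.98% of all tested genes. The groups did not overlap in 6 of the 8, all higher with KIRA6, which 27.7% of all tested genes also showed. Their median log2 fold change was 0.34, against 0.16 over all tested genes. The ROR receptors Rora and Rorb and the CLOCK paralog Npas2 were at or below 0.01 FPKM throughout. Nfil3, the repressor of D-boxes, had 29.46, 31.65 and 27.26 FPKM with KIRA6, against 10.55, 10.83 and 11.02 FPKM with vehicle (log2 fold change 1.40 ± 0.12 SE, limma adjusted p = 0.001052). The D-box activators Dbp and Tef and their repressor were therefore all higher, and Nfil3 stayed the most abundant of the 3 in every library.

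Bhlhe41, the paralog of Bhlhe40 also called Dec2, had 4.88, 5.45 and 7.48 FPKM with KIRA6, against 1.87, 2.28 and 3.03 FPKM with vehicle (log2 fold change 1.15 ± 0.22 SE, limma adjusted p = 0.01278). Unlike those of Bhlhe40 its groups did not overlap. The call ended without KIRA6 replicate 2 (adjusted p = 0.0532) or Vehicle replicate 2 (0.0563). Ciart, a repressor of CLOCK and BMAL1, had 1.43, 1.68 and 1.52 FPKM with KIRA6, against 0.83, 0.62 and 0.45 FPKM with vehicle (log2 fold change 0.86 ± 0.17 SE, limma adjusted p = 0.01506). Its call ended without KIRA6 replicate 2 (0.0712), KIRA6 replicate 3 (0.0531) or Vehicle replicate 2 (0.0635) and with quantile normalization (0.1072). Of the further factors, 11 had a promoter window, and CACGTG occurred in 2 of them, Ciart and Bhlhe41, against 8.09% of all genes. Nfil3 had no match. The promoter of Ciart is shown because it holds the E-box 3 times in 1 window, against 1 match in each window above that has any.
Ciart, GRCm38.p6 chr3:95882247-95882364, minus strand: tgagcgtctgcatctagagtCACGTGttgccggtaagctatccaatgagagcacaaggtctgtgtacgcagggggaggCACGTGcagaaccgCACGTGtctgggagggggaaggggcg

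The activators themselves did not pass the test. Clock had 2.55, 3.62 and 3.79 FPKM with KIRA6 and 3.17, 2.81 and 2.11 FPKM with vehicle, and its groups overlapped (limma adjusted p = 0.419). Arntl had 1.43, 1.27 and 1.23 FPKM with KIRA6 and 0.93, 0.97 and 1.00 FPKM with vehicle, and Arntl2 had 2.34, 2.45 and 2.69 FPKM with KIRA6 and 2.14, 2.22 and 2.14 FPKM with vehicle. Neither pair of groups overlapped, but the log2 fold changes of 0.30 ± 0.14 and 0.17 ± 0.13 (SE) missed the threshold (limma adjusted p = 0.1578 and 0.419). Timeless and Tipin, partners at the replication fork, had log2 fold changes of 0.37 ± 0.17 and −0.35 ± 0.23 (SE, limma adjusted p = 0.1589 and 0.3124). The remaining gene of the list is Hlf, given above.

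**Figure D4:**
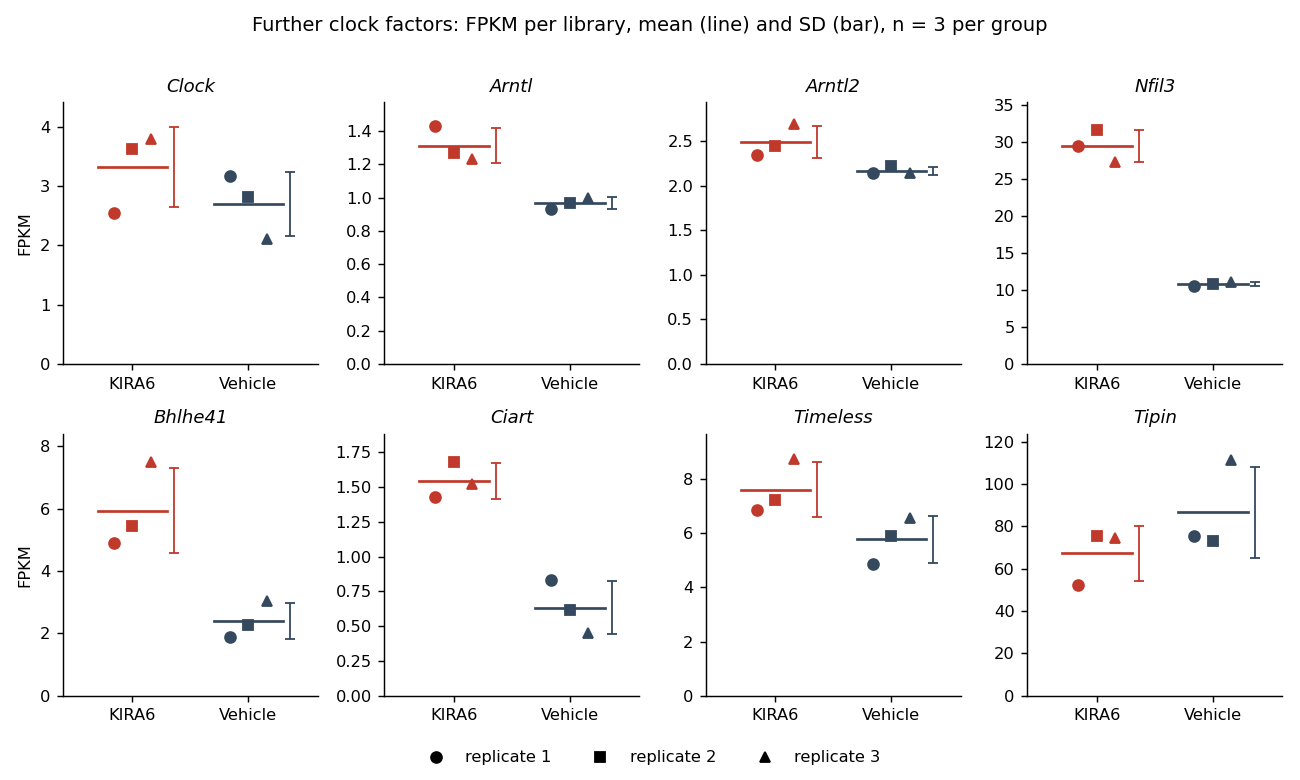
FPKM of the 8 further clock factors described in the text, in each library, KIRA6 (red, left) and vehicle (dark, right), with a line at the mean and a bar for the SD (n = 3 each); each panel has its own axis from 0. Nfil3, Bhlhe41, Ciart, Arntl, Arntl2 and Timeless have all KIRA6 points above all vehicle points, and Clock and Tipin overlap. Only Nfil3, Bhlhe41 and Ciart were called higher.

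Among 16 tested kinases, phosphatases and ubiquitin ligase subunits that act on clock proteins, 1 was called higher and 1 lower, or 12.5% in either direction against 23.6% of all tested genes. Their median log2 fold change was 0.03, against 0.16 over all tested genes. Btrc, the ligase subunit that marks PER for degradation, averaged 2.64 ± 0.0924 FPKM with KIRA6 and 1.54 ± 0.127 FPKM with vehicle (limma adjusted p = 0.01938). Csnk1e, a casein kinase that phosphorylates PER, averaged 5.52 ± 0.146 FPKM with KIRA6 and 8.27 ± 0.833 FPKM with vehicle (limma adjusted p = 0.02969; SD, n = 3 each throughout). Both calls ended when any of KIRA6 replicates 2 and 3 and Vehicle replicates 1 and 2 was left out (adjusted p from 0.0608 to 0.1027), and that of Csnk1e also without KIRA6 replicate 1 (0.0745). Quantile normalization ended that of Btrc (0.3072), and the lack of a filter that of Csnk1e (0.0511). Csnk1d, the related kinase, had 45.80, 39.66 and 41.96 FPKM with KIRA6 and 41.44, 44.78 and 40.15 FPKM with vehicle, a log2 fold change of 0.01 with an interval of −0.29 to 0.31.

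Of 13 tested genes known to follow the clock in other tissues, 1 was called higher and 3 lower, or 30.8% in either direction against 23.6% of all tested genes. Their median log2 fold change was 0.04, against 0.16 over all tested genes. Under the filter, Ypel2 had 0.51 to 0.74 FPKM with KIRA6 and 0.03 to 0.08 FPKM with vehicle. Upp2 had 0.14 to 0.31 FPKM with KIRA6 and 0.01 to 0.06 FPKM with vehicle. A fit with no filter on low values gave limma adjusted p of 0.007532 and 0.07316 for them. They rest on an estimated 1 to 8 fragments per vehicle library. Pdk4, Lonrf3 and Avp were at or below 0.08 FPKM in every library. Cdkn1a, the cell cycle inhibitor p21, averaged 3.23 ± 0.204 FPKM with KIRA6 and 1.64 ± 0.0889 FPKM with vehicle (limma adjusted p = 0.008189). That call ended without KIRA6 replicate 2 (adjusted p = 0.0506) and with quantile normalization (0.0825). The decreases were Rgs16, a regulator of G protein signalling (log2 fold change −4.15), the lactate transporter Slc16a1 (−1.48) and the tetraspanin Tspan4 (−0.99), with limma adjusted p of 0.0001129, 0.004097 and 0.003887. Usp2, a deubiquitinase that is in this list and the one before, had 0.63, 1.52 and 1.9 FPKM with KIRA6 and 0.24, 0.18 and 0.69 FPKM with vehicle, with the same low KIRA6 replicate 1 and high Vehicle replicate 3 as Per1 (limma adjusted p = 0.0674).

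Glucocorticoids and cAMP act on the clock through Per1, and genes that answer to them were called in both directions. Of 11 tested glucocorticoid-responsive genes, Per1 included, 2 were called higher and 2 lower, or 36.4% in either direction against 23.6% of all tested genes, with a median log2 fold change of 0.58 against 0.16. Tsc22d3 (GILZ) and Klf9 were higher, with log2 fold changes of 1.84 and 0.97 (limma adjusted p = 0.002238 and 0.01153), and Errfi1 and the kinase Sgk1 were lower, with −1.69 and −1.52 (0.0007236 and 0.001747). The call for Klf9 ended without KIRA6 replicate 2 (0.0619) or Vehicle replicate 2 (0.0564). Of 11 tested CREB-responsive genes, Per1 again included, the AP-1 subunit Junb and the phosphodiesterase Pde4b were called higher (0.82 and 0.76, limma adjusted p = 0.00733 and 0.01465). The nuclear receptor Nr4a1 was called lower (−1.11, 0.02893). The calls made up 27.3% of this list, near the 23.6% of all tested genes, and the list median was 0.23. The call for Pde4b ended without KIRA6 replicate 3 (0.0556), Vehicle replicate 1 (0.0525) or Vehicle replicate 2 (0.0724) and with quantile normalization (0.14). That for Nr4a1 ended without KIRA6 replicate 1 (0.066), KIRA6 replicate 2 (0.112), KIRA6 replicate 3 (0.0584) or Vehicle replicate 2 (0.0846) and with no filter (0.0566).

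By Pearson's r of log2(FPKM + 0.5) over the 6 libraries, the genes most like Dbp, the clock gene with the largest called increase, were Zhx1, Ap5s1 and Syt17 (r of 0.998 to 0.999). Those most like Cry1, the called decrease, were Vcam1, Wars and Rrp1b (r of 0.9987 to 0.9997). Zhx1 had 4.96, 6.18 and 6.56 FPKM with KIRA6 and 2.02, 2.01 and 1.95 FPKM with vehicle, and Vcam1 had 4.99, 4.59 and 4.69 FPKM with KIRA6 and 9.08, 9.22 and 9.92 FPKM with vehicle. These likenesses are descriptions that rest mostly on the step between the groups, which all 6 genes share.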

How the data were processed

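Each of the 6 RNA libraries comes from 4T1 cells. Poly(A) selection was used, per the labels' protocols, and the strand was marked with dUTP. Tools named in the submitters' processing notes are HTSeq 0.6.1, HISAT2 2.2.1, DESeq2 1.34.0 and cutadapt 1.9.1, with the build GRCm39; no settings are given there. FPKM with 2 decimals, exonic lengths and GRCm39 coordinates were deposited by the authors.

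The two-sided test was limma (version 3.58.1, R 4.3.3) on log2(FPKM + 0.5), using its trended and robust moderation. The Benjamini-Hochberg adjustment ran over the 11778 genes that averaged 0.5 FPKM or more, and no p was adjusted over a list. Paralog ratios were tested by exact permutation over libraries, which cannot go below 0.1. Depth was estimated from the steps between low FPKM values of genes of up to 600 bases: 100% of 870 to 1089 values per library lay within 0.1 fragment of a whole number. Fragment numbers cover counting error only. Whether libraries stem from separate cultures is not in the labels; the p-values therefore reflect spread among these libraries alone, possibly technical. The fit was tested on simulated data in which each gene varied independently. In the real libraries spread was shared across genes, which that test does not cover.

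The genes and lists were chosen with earlier results of these data known. All 10 clock genes and all further clock factors above 0 are named, and in the other lists up to 5 called genes per direction; 3 genes of these lists are not reported here and are left out of their counts. Usp2, Csnk1d, overlapping genes and the genes under the filter that are known to follow the clock were named after their values were seen. The 3 genes most like Dbp and Cry1 needed a mean of at least 1 FPKM and an established symbol. Promoter windows are RefSeq's on GRCm38.p6, matched by symbol.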

Additional observations from a re-analysis of the deposited data

How the results depend on the processing

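Dbp and Tef were called higher in all 18 alternatives and Per3 in all 17 that kept it, with log2 fold changes of 1.83 to 4.16, 0.95 to 1.46 and 0.61 to 2. Cry1 was called lower in 16 of 18 and Nr1d2 higher in 11 of 18. All genes called numbered 2783, and 1211 to 3392 with 1 library left out. KIRA6 replicate 2 left out gave 1211, KIRA6 replicate 3 gave 1554, Vehicle replicate 1 gave 1622 and Vehicle replicate 2 gave 1268. They numbered 6610 without KIRA6 replicate 1 and Vehicle replicate 3 together, 10003 with array weights and 4423 with the replicate block. Clock genes called higher numbered 8 in the fits without the 2 libraries and with array weights, where 35.9% and 51.3% of all tested genes were called higher, and 3 to 4 with 1 library left out; those called lower numbered 0 to 1. The median of all genes was −0.008 under median-ratio scaling, against 0.16 as deposited, and higher calls were then 47.4% of all calls, 48.9% with quantile normalization and 66.2% as deposited; the called clock genes kept their direction. Turned directions were Bhlhe40 with median-ratio scaling (−0.00203) and without KIRA6 replicate 3 (−0.0218, to 0.462 over single libraries left out), Clock, Arntl and Arntl2 with quantile normalization (−0.0359, −0.0505 and −0.164), and Tipin with array weights (0.0292) and without the 2 libraries (0.0119). The ratio of Per1 to Per3 turned to 0.00755 with a pseudocount of 1 FPKM and ran from −0.414 to 0.372 with 1 library left out, and that of Nr1d1 to Nr1d2 from −0.312 to 0.842. Same-numbered replicates had residual correlations of 0.762, −0.469 and 0.738. KIRA6 replicates 1 and 3 correlated best with the vehicle replicate of their own number, and KIRA6 replicate 2 with Vehicle replicate 3 (0.524). With 3 libraries per group these correlations cannot settle whether the numbers pair samples, and no label says so. The replicate block called Cry2 (limma adjusted p = 0.0472) and Nr1d1 (0.0387) in addition. The cause of these shifts was not tested. A raw count test was not run because the values are FPKM. Few fragments stand behind Per2 and behind Dbp and Per3 in vehicle.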
